A study of Mus musculus with 15 samples.

Results

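The replication-dependent core histone genes encode the H2A, H2B, H3 and H4 proteins that are built into new nucleosomes during S phase. Most animal mRNAs end in a poly(A) tail, but transcripts of these genes are cut downstream of the stop codon at a conserved stem-loop, which is bound by the stem-loop binding protein and which links their stability to DNA replication. The genes lie in clusters, usually lack introns, and encode nearly the same protein many times, so cells with rapid cycles such as embryonic stem cells (ESC) draw on many copies at once. The genes were taken by symbol, as every gene of the Hist1 to Hist4 clusters named H2A, H2B, H3 or H4, with linker H1 left out. This gave 58 of the 21662 genes counted, of which 15 are named H2A, 19 H2B, 11 H3 and 13 H4. The H2B member Hist3h2bb-ps and the H3 member Hist2h3c2 are annotated as pseudogenes. By cluster, 46 belong to Hist1 on mouse chromosome 13, 8 to Hist2 on chromosome 3, 3 to Hist3 on chromosome 11 and 1 to Hist4 on chromosome 6. All 58 passed the filter of a mean count of at least 10 in each experiment.

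The counts came from rRNA-depleted total RNA of mouse ESC, in which RNAs without a poly(A) tail are sequenced, and were made in a study of Hmga1 and Hmga2, small proteins that bind AT-rich DNA through AT-hooks. All lines descended from a parental ESC line that carries the biotin ligase BirA under the CAG promoter and was grown in serum with LIF. In the knockout experiment (9 samples), WT_1 was the parental line (n = 3, letters a, b and c), Hmga1KO_1 was a clone with a Cas9-made frameshift at an exon and intron junction of Hmga1 (n = 2), and Hmga1ab_1 and Hmga2ab_1 were the same knockout cells with a biotin-tagged cDNA of Hmga1 or of Hmga2, driven by CAG from a defined locus (n = 2 each, letters a and b). In the full-deletion experiment (6 samples), WT_2 (n = 3) was compared with Hmga1del_2 (n = 3), a clone from which 2 guides in the flanking untranslated regions had removed the Hmga1 coding sequence. Each mutant line was 1 clone, so clone and genotype cannot be told apart. The study calls the letters of the knockout experiment batches, and its methods define a batch by a shared day of library preparation and a shared flow cell.

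Libraries held 1.35e+07 to 3.50e+07 counts in the knockout experiment and 1.48e+07 to 2.17e+07 counts in the full-deletion experiment. Levels are given as CPM, the counts divided by the TMM-scaled size of the library and set to a common total, and as CPM per kilobase of exon where genes are compared with each other. Hmga1 stood at 221 to 464 CPM in WT_1, 96.1 and 217 CPM in Hmga1KO_1, 310 to 357 CPM in WT_2 and 10.9 to 12.3 CPM in Hmga1del_2, so its RNA was lower than in the wild type without overlap in both mutants, and was still present in the frameshift clone. Hmga1 stood at 123 and 184 CPM in Hmga1ab_1, a value that does not measure the added cDNA alone, since it was not checked how much of it the counted exons cover, and Hmga2 stood at 222 and 249 CPM in Hmga2ab_1 against at most 23.8 CPM in the other groups. The 8 ESC markers examined summed to between 4022 and 7421 CPM in every sample, 6 feeder fibroblast markers to at most 13.2 CPM and 7 markers of differentiated cells to at most 75.3 CPM, with none of the markers at 0 in every sample. In bulk RNA, fewer cells in S phase and less histone RNA per cell cannot be told apart. For wild-type and Hmga1 knockout ESC the study reports no overall difference in the cell cycle and a barely significant one in S phase. Whether the sequenced cultures had those profiles was not tested.

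The 3′ end is what sets this family apart from other mRNAs, and it was searched for in the genome of the files' build (mm9, NCBIM37). A pattern of 2 G, any 3 bases, 3 T, any 6 bases and 2 C was sought on both strands in the 100 bases after the stop codon of the 56 members annotated as protein coding. It was present on the coding strand of 52 members (92.9%) and on the opposite strand of 0, while of 21749 other protein-coding genes 0.855% held it on the coding strand and 0.745% on the opposite strand. Hist1h2an, Hist1h3g, Hist1h4a and Hist2h2be had no such letters in this window, and the pseudogenes Hist2h3c2 and Hist3h2bb-ps were not searched. The 52 stem-loops had 6 sequences, which began 21 to 58 bases after the stop codon. They are shown with 5 bases on each side, 5′ to 3′ on the coding strand, with the stem-loop in capitals, 1 member for each of the 6 sequences and then the 2 members whose coding sequence has no copy elsewhere.
Hist1h2ab (chr13:23843436-23843461, plus strand): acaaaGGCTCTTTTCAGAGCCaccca
Hist1h2bb (chr13:23839067-23839092, plus strand): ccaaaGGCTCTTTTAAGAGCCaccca
Hist2h2ac (chr3:96024336-96024361, minus strand): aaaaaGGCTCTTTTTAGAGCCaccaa
Hist1h4d (chr13:23673814-23673839, plus strand): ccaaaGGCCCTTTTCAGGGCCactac
Hist1h4i (chr13:22132830-22132855, minus strand): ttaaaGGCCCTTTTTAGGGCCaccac
Hist1h4b (chr13:23849230-23849255, plus strand): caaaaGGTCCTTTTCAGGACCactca
Hist2h2bb (chr3:96074089-96074114, plus strand): caaaaGGCTCTTTTCAGAGCCacttt
Hist4h4 (chr6:136752514-136752539, minus strand): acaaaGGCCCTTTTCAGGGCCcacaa

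The stem differed between the classes. All 40 stem-loops of H2A, H2B and H3 members opened with GGCTC, of which 31 had the Hist1h2ab form, 8 the Hist1h2bb form and 1 the Hist2h2ac form. All 12 of the H4 members carried a different stem, the Hist1h4d form in 8, the Hist1h4i form in 2 and the Hist1h4b form in 2, the last being Hist1h4b and Hist1h4j. In all 6 sequences the first 6 bases were the reverse complement of the last 6, so the stem could pair in each form.

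The coding sequences are close copies, and this limits how a read can be given to a gene. The authors kept 1 randomly chosen position for a read that aligned equally well to several places. Of the 56 members with a coding model, 46 had at least 50% of their 47-base windows repeated elsewhere in the genome, and a window of an H2A gene occurred up to 19 times. In 7 members every coding window was repeated, among them Hist1h4m, Hist1h4n, Hist1h2bq and Hist1h2br, and their single values are uncertain. Under 15% was repeated in 6 members: Hist2h2bb and Hist4h4 (0%), Hist2h2be (0.299%), Hist1h2aa (3.2%), Hist2h4 (7.14%) and Hist3h2a (13%). For most other members the class is the safer unit, and members counted within a class are not independent of each other. Hist3h2a overlaps Trim17, so its counts may include reads of that gene, while Hist2h2aa1 overlaps Hist2h3c1 and Hist1h2be overlaps Gm11398, also on the same strand. The gene models in the files held the coding bases only for 28 members, so the stem-loop itself was often not counted.

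Together the 58 genes took 0.757% to 1.68% of all counts in a library. Levels differed widely between members, and the order below rests on means over all 15 samples. Hist2h2bb, an H2B gene of the Hist2 cluster, was highest, with a mean of 5170 CPM per kilobase over the 15 samples and 21.2% of the summed mean level of all members. It was followed by the H2B genes Hist1h2bb (2397 CPM per kilobase) and Hist1h2bn (1524). The highest H4 genes were Hist1h4d (1096), Hist1h4k (516) and Hist1h4m (490), and the highest H2A genes were Hist1h2ab (780), Hist1h2af (740) and Hist1h2ai (715). By CPM alone, Hist2h2aa1 stood above Hist1h2ab, at 1068 against 395 CPM. Its gene model held 2337 exonic bases and that of Hist1h2ab 506, so the order per kilobase depends on models of unlike length. Among H3 genes, Hist1h3d led with 224 CPM per kilobase, ahead of Hist1h3c (136) and Hist1h3e (135). The other end was held by Hist3h2bb-ps (6.36), Hist3h2ba (5.58) and Hist2h2be (0.728), a gene with counts of 23 to 71 in a library. The 10 members with the highest CPM made up 63.3% of the summed level. The order differed between the wild types. In WT_1, Hist1h4d (1222 ± 329 CPM per kilobase, SD, n = 3) came after Hist2h2bb and before Hist1h2bb (965 ± 65.0), although the spread of Hist1h4d reached Hist1h2bb, and in WT_2 it stood at 230 ± 137. Hist1h4k ranked second among H4 genes in WT_1 (717 ± 137), while in WT_2 that place was held by Hist1h4b (132 ± 64.7), whose spread overlapped that of Hist1h4m (93.1 ± 52.3). Among H3 genes, Hist1h3c (198 ± 58.5), Hist1h3d (191 ± 52.5) and Hist1h3e (178 ± 46.5) did not differ beyond their spread in WT_1, and in WT_2 Hist1h3d (223 ± 76.4) was followed by Hist1h3g (80.5 ± 53.0) and Hist2h3b (45.6 ± 32.7).

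The 2 experiments differed in which classes supplied these counts. H4 took 16.4% to 23.1% of the core histone counts in all 9 libraries of the knockout experiment and 0.902% to 5.52% in all 6 of the full deletion, with no overlap. H2B went the other way, with 37.2% to 44.9% against 48.8% to 80.1%. H3 took 8.07% to 10.7% against 2.01% to 6.80%, and H2A overlapped, with 29.5% to 36.9% against 17.0% to 39.8%. The 2 experiments were prepared and sequenced apart, so this contrast is a description that carries no test.

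**Figure D1:**
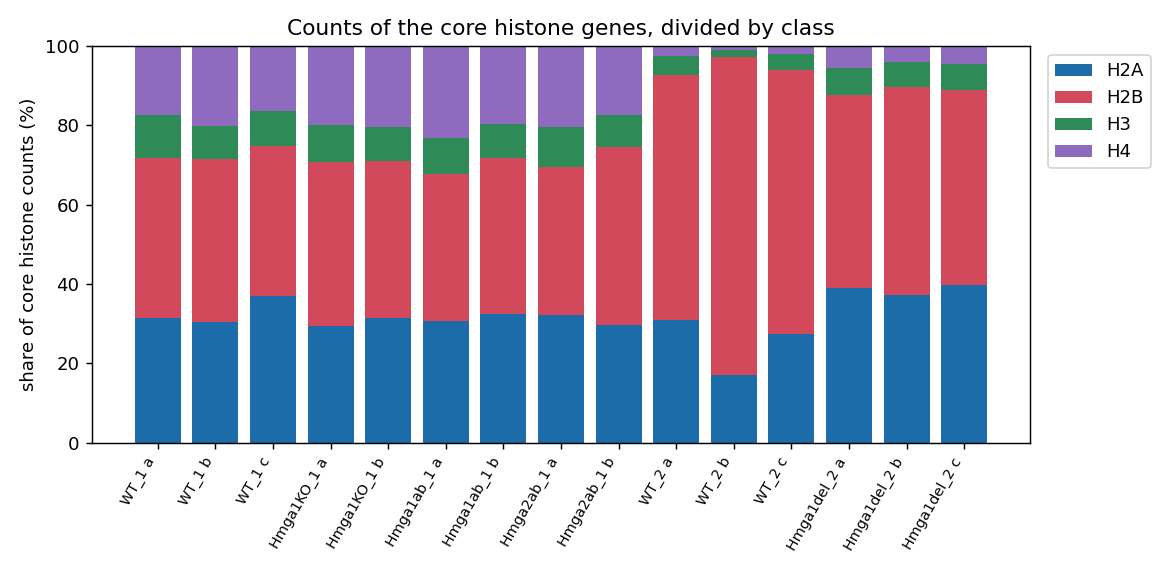
Share of the core histone counts (y axis, percent) taken by H2A, H2B, H3 and H4 genes in each of the 15 samples (x axis). H4 takes 16.4% to 23.1% in the first 9 samples and at most 5.52% in the last 6, and H2B reaches 80.1% in WT_2 b.

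The same held between the wild types alone. The H4 genes summed to 1633, 1717 and 1809 CPM in WT_1 and to 125, 361 and 412 CPM in WT_2, so the WT_1 mean was 5.75-fold higher, or 4.45-fold higher with WT_2 b left out. All 13 H4 genes and 9 of 11 H3 genes had every WT_2 sample below every WT_1 sample, as did 36.4% of all genes. Counts of the 2 experiments were scaled separately. Hist4h4 differed most, at 25.4, 42.8 and 42.3 CPM in WT_1 and 2.23, 0.184 and 2.26 CPM in WT_2 (letters a, b and c), where WT_2 b held 3 counts. Of the H3 genes, Hist1h3d did not share this and stood 1.16-fold higher in WT_2. H2B genes summed to 3338 to 4194 CPM in WT_1 and 9629 to 11350 CPM in WT_2, a 2.79-fold higher mean. This rested mainly on Hist1h2bb, with 422 to 483 CPM in WT_1 and 1982 to 3313 CPM in WT_2, and on Hist2h2bb, with 1463 to 2124 CPM and 4419 to 7037 CPM. In all, 10 of 19 H2B genes had every WT_2 sample above every WT_1 sample, where 14.2% of all genes did, and no gene of the other classes did. Another H2B gene, Hist3h2ba, had every WT_2 sample below. The fall was not particular to histone genes. A list of 114 other short RNAs without a poly(A) tail summed to 2818 to 3907 CPM in WT_1 and 573 to 913 CPM in WT_2. The 8 linker H1 genes went the other way, with 2225 to 2747 CPM and 3113 to 3431 CPM. What these lists share with the core histone difference was not tested.

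**Figure D2:**
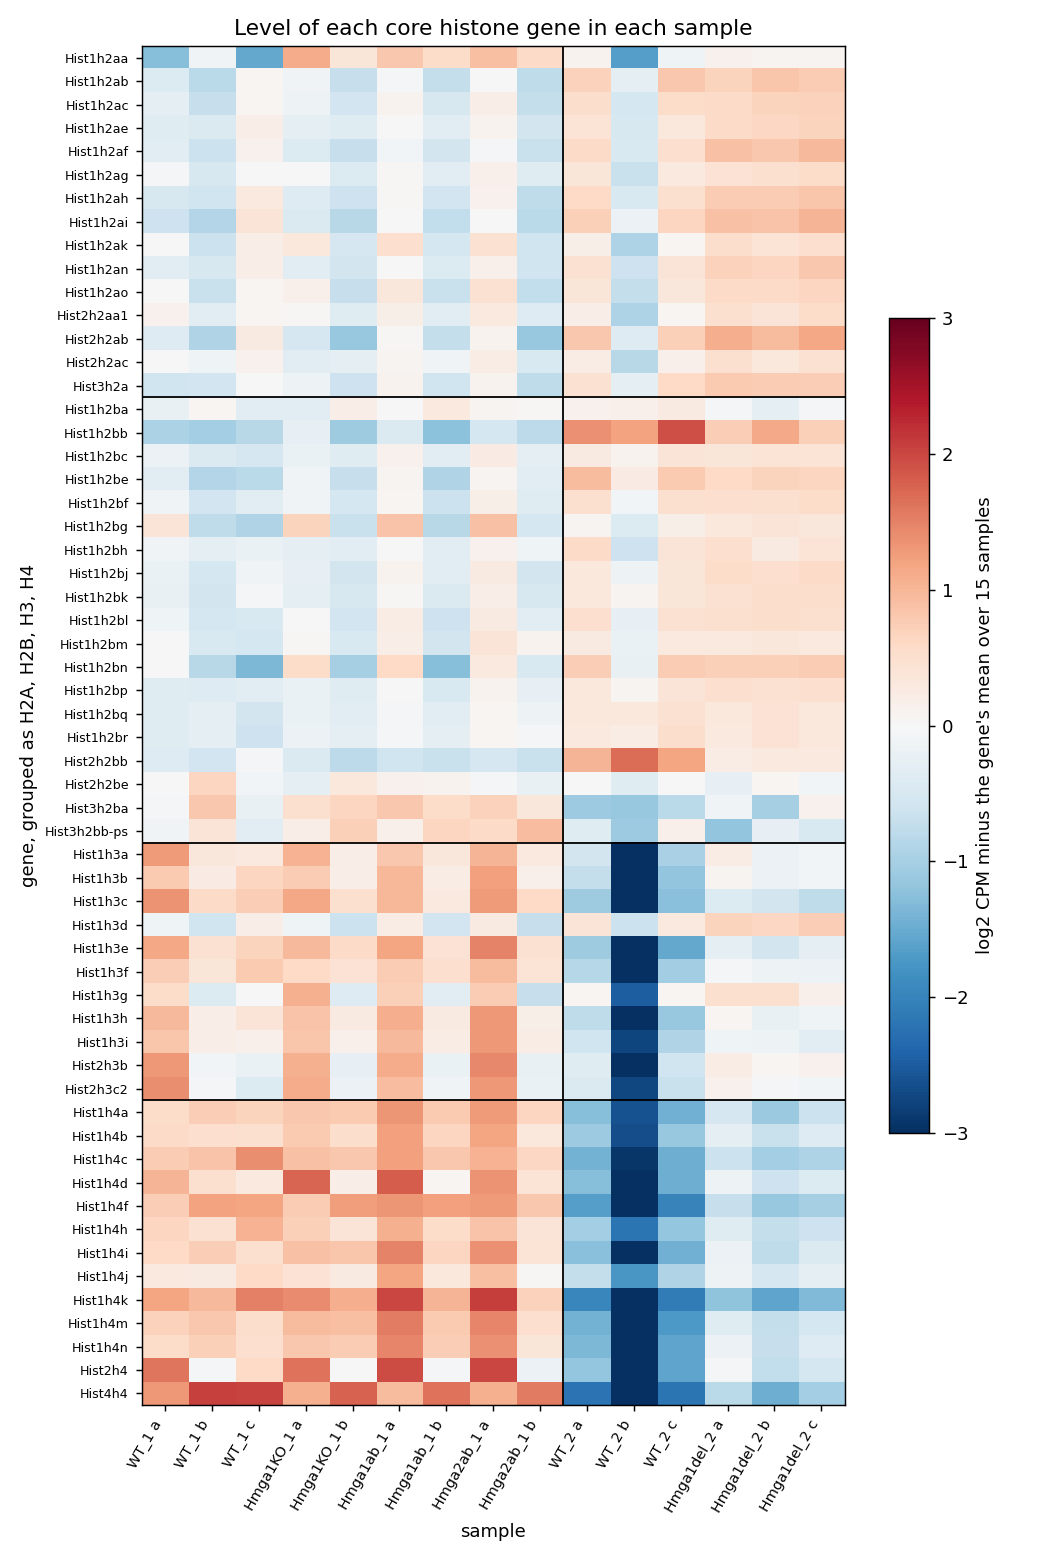
Log2 CPM of each of the 58 genes (rows, grouped by class) in each sample (columns), minus the gene's own mean over the 15 samples, with the color scale limited to 3 on either side. All 13 H4 genes are lower in the 3 WT_2 samples than in the 3 WT_1 samples, and WT_2 b is the lowest of its 6 for 53 of the 58 genes.

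The knockout was compared with wild type to ask which genes respond to the loss of Hmga1. No core histone gene passed the test in Hmga1KO_1 against WT_1 (adjusted p under 0.05, edgeR quasi-likelihood test with the batch as a term), where 0.0647% of the 13912 genes tested did. Of the 58 genes, 1 had an unadjusted p under 0.05, against 12.6% of all genes. DESeq2 and limma-trend also called 0 members, a count given here without the share of all genes that these methods called. The median log2 difference of the members was 0.04, beside -0.01 over all genes. By class the medians were 0.06 for H2A, 0.04 for H2B, -0.03 for H3 and 0.10 for H4. The 7 markers of differentiated cells summed to 39.1 to 47.1 CPM in the knockout and 63.9 to 75.3 CPM in WT_1, and their part in the histone levels was not tested. In 5 members both knockout samples lay above all WT_1 samples and in 1 both lay below, shares that for all genes were 13% and 10.5%. These counts pool the batches, unlike the test, and batch c is present only in WT_1.

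The gene of lowest p was Hist1h2aa, which encodes a testis-type H2A and shares only 3.2% of its coding windows with other loci. Its level was 12.1, 27.5 and 10.04 CPM in WT_1 a, b and c and 63.2 and 38.0 CPM in Hmga1KO_1 a and b. Both knockout samples were above all WT_1 samples, with a log2 difference of 1.38 ± 0.38 (SE, adjusted p = 0.221). The size rested on WT_1 b: without it the log2 difference was 2.25 (adjusted p = 0.00364, with 5.25% of all genes called), and without WT_1 a it was 0.64. Hist4h4 came next, at 21.7 and 34.9 CPM in Hmga1KO_1 a and b, against 25.4 and 42.8 CPM in WT_1 a and b. Within each letter it was lower in the knockout, although the groups overlapped when the letters were pooled. Its log2 difference was -0.26 ± 0.13 (adjusted p = 0.440).

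The lines with an added cDNA gave like counts. In Hmga1ab_1 against WT_1, 0 of 58 members were called (0.0431% of all genes), 5 had an unadjusted p under 0.05 (13.3% of all genes), and the median was 0.19 on the log2 scale. In Hmga2ab_1 against WT_1, 0 were called (0.165% of all genes), 10 had an unadjusted p under 0.05 (16.9% of all genes), and the median was 0.21. DESeq2 and limma-trend also called 0 members in each, again without their share of all genes. These comparisons share the WT_1 samples with the one above. Hist1h2aa stood at 51.6 and 42.7 CPM in Hmga1ab_1 and at 54.7 and 43.7 CPM in Hmga2ab_1, again above all WT_1 samples. Its log2 differences were 1.28 ± 0.38 (adjusted p = 0.246) and 1.34 ± 0.38 (adjusted p = 0.175). Left out of the fit, WT_1 b again decided the call, with 2.174 (adjusted p = 0.00610) and 2.23 (adjusted p = 0.00347), and Hist3h2a, which overlaps Trim17, then passed as well, with 0.69 (adjusted p = 0.0434) and 0.61 (adjusted p = 0.0455). In those fits 5.75% and 9.36% of all genes were called.

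The other members of lowest p differed by less. Hist1h3c, an H3 gene, stood at 100 and 61.0 CPM in Hmga1ab_1 and 127, 74.4 and 83.6 CPM in WT_1, a log2 difference of -0.31 ± 0.10 (adjusted p = 0.288). Hist1h2bm, an H2B gene, stood at 166 and 137 CPM in Hmga2ab_1 and 126, 92.0 and 88.9 CPM in WT_1, a log2 difference of 0.49 ± 0.13 (adjusted p = 0.153). In Hmga1ab_1 both samples lay above all WT_1 samples for 5 members, Hist1h2aa and 4 H4 genes, and below them for Hist2h2bb, shares that for all genes were 10.2% and 7.6%. In Hmga2ab_1 every sample lay above all WT_1 samples for 8 members, 7 of them H2B genes, where 14.4% of all genes did, and below for 0 members, where 12.4% of all genes did. Batches are pooled in these counts too.

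Against the knockout clone itself, adding a cDNA called 0 members in each line, with 0% of all genes called for Hmga1ab_1 and 0.0144% for Hmga2ab_1, and 1 and 2 members with an unadjusted p under 0.05, against 2.8% and 5.09% of all genes. DESeq2 and limma-trend called 0 members too, again without their share of all genes. The medians were 0.12 and 0.15 on the log2 scale. The lowest p for Hmga1ab_1 belonged to Hist2h2ab (117 and 69.4 CPM against 79.9 and 51.9 CPM in the knockout, log2 difference 0.49 ± 0.17, adjusted p = 0.9999) and to Hist1h4h (157 and 111 CPM against 123 and 99.0 CPM, 0.26 ± 0.12, adjusted p = 0.9999). For Hmga2ab_1 they belonged to Hist1h2bm, at 131 and 92.1 CPM in the knockout (0.46 ± 0.13, adjusted p = 0.877), and to Hist1h2bh (73.5 and 60.8 CPM against 55.0 and 54.0 CPM, 0.30 ± 0.12, adjusted p = 0.877).

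Many histone genes differed between the batches within each genotype. Between batch b and batch a, 40 of the 58 members were called, 39 lower and 1 higher in b, where 35.6% of all genes were called, 17.1% lower and 18.6% higher. Of the members, 47 had an unadjusted p under 0.05, and 47% of all genes had. The median of the members was -0.48 on the log2 scale and that of all genes -0.03. All 11 H3 genes fell, as did 12 of 15 H2A genes, 10 of 19 H2B genes and 6 of 13 H4 genes. Within the 4 genotypes taken one by one, 42 of 58 members (72.4%) were lower in b than in a every time, and 25.9% of all genes were. With the fold limit of the study's own rule (adjusted p under 0.01 and at least 2-fold), 7 members were called, beside 2.34% of all genes.

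Hist2h4 differed most. Its level was 110, 112, 140 and 147 CPM in batch a of WT_1, Hmga1KO_1, Hmga1ab_1 and Hmga2ab_1 and 34.9, 36.6, 34.9 and 32.3 CPM in batch b. No a sample came near a b sample, and the gene was 3.65-fold lower (log2 difference -1.87 ± 0.11, adjusted p = 0.000302). Its H3 neighbours in the Hist2 cluster behaved alike, with Hist2h3b at 76.5 to 99.3 CPM in a and 30.9 to 34.7 CPM in b (-1.42 ± 0.09) and the pseudogene Hist2h3c2 at 46.0 to 63.9 CPM and 21.1 to 23.7 CPM (-1.31 ± 0.11). In the Hist1 cluster the lowest p belonged to Hist1h2bg (-1.39 ± 0.10), Hist1h3g (-1.22 ± 0.11), Hist1h2ak (-0.89 ± 0.09), Hist1h3c (-0.71 ± 0.07) and Hist1h2ao (-0.92 ± 0.10), with adjusted p from 0.000302 to 0.00106 over these 8 genes. Hist4h4, the lone gene of the Hist4 cluster, was the only member called higher. It stood at 25.4, 21.7, 20.1 and 21.7 CPM in a and 42.8, 34.9, 32.0 and 30.6 CPM in b, and rose 1.57-fold (0.65 ± 0.09, adjusted p = 0.00236).

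Sequencing depth moved with the batch, at 3.07e+07 to 3.50e+07 counts in a and 1.35e+07 to 1.46e+07 counts in b. So did other RNAs without a poly(A) tail, but upwards: of 91 tested snoRNAs, scaRNAs, snRNAs and the like, 45 rose and 4 fell in b (median 0.72), led by Rpph1, the RNA of RNase P (1.88 ± 0.10), Snord82 (2.52 ± 0.17) and Snord17 (1.59 ± 0.11). The 335 other tested genes with at most 700 exonic bases had a median of 0.01, and of all genes 18.6% rose and 17.1% fell. Of 28 genes of DNA replication, 6 rose and 2 fell, among them Pola1, a subunit of DNA polymerase alpha (0.81 ± 0.09), Pcna, the sliding clamp (0.49 ± 0.10), Mcm4 (0.31 ± 0.07), Pold1 (-0.35 ± 0.08) and Mcm2 (-0.35 ± 0.09). The part of these measures in the histone difference was not tested.

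The machinery around histone mRNA moved in both directions in the same contrast, as did all genes, of which 18.6% rose and 17.1% fell. Of 15 factors for the 3′ end and decay of histone mRNA, 4 rose and 2 fell. Casp8ap2 (FLASH), part of the histone locus body, rose by 0.58 ± 0.07 and Eri1, which trims the histone mRNA end, by 0.46 ± 0.08, while Upf1, a helicase of histone mRNA decay, fell by 0.41 on the log2 scale (SE 0.08). Of 11 genes listed for histone transcription and S-phase entry, 3 rose, Npat, the activator of the clusters (0.23 ± 0.07), Gmnn (0.45 ± 0.08) and Yy1 (0.53 ± 0.10), and 3 fell, E2f4 (-0.49 ± 0.08), Cdk2 (-0.27 ± 0.08) and E2f1 (-0.43 ± 0.14). Of 16 chaperones, 7 rose and 2 fell, with Asf1a up by 0.95 ± 0.19, Nasp by 0.58 ± 0.09, Rbbp7 by 0.52 ± 0.08 and Atrx by 0.53 ± 0.10, and with Asf1b at -0.59 ± 0.08. Replication-independent variants gave 2 higher and 1 lower of 9, H3f3a (0.66 ± 0.12), H2afz (0.63 ± 0.11) and H2afx (-0.39 ± 0.07), the last of which has both a stem-loop and a poly(A) form. Of 8 linker histones, only H1fx passed (-1.64 ± 0.17).

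**Figure D3:**
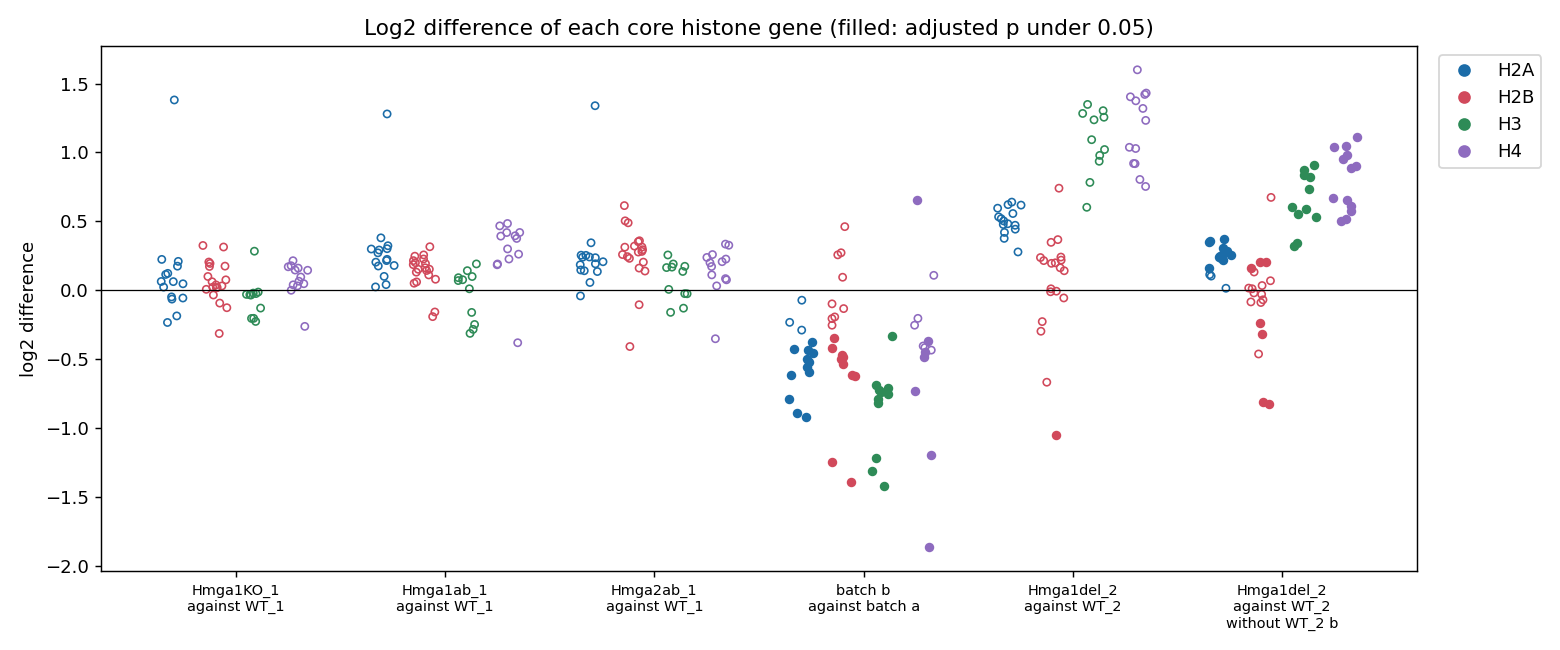
Log2 difference (y axis) of each of the 58 genes in 6 comparisons (x axis), colored by class, with filled points at an adjusted p under 0.05. Points are open in the first 3 comparisons, 40 of 58 are filled between the batches, and 1 is filled for Hmga1del_2 against WT_2, or 43 once WT_2 b is left out.

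In the full-deletion experiment, WT_2 b stood apart from every other sample before genotype was considered. Its TMM factor was 0.752, against 0.986 to 1.12 in the other 5. It was the lowest of the 6 samples for all 15 H2A, 11 H3 and 13 H4 genes and for 14 of 19 H2B genes, and the highest for 1 gene, Hist2h2bb. Of all genes, 39.8% had their lowest value in WT_2 b and 35.1% their highest. The mean of WT_2 a and c exceeded WT_2 b by a median of 4.84-fold for H3 genes, 3.28-fold for H4, 2.02-fold for H2A and 1.39-fold for H2B. The 28 replication genes summed to 9559 CPM in WT_2 b, to 7510 and 7542 CPM in WT_2 a and c, and to 6356 to 6589 CPM in Hmga1del_2. The 8 ESC markers summed to 4360 to 7421 CPM in WT_2 and 4022 to 4129 CPM in Hmga1del_2. The part of these measures in the histone levels was not tested, and the comparisons below are given with and without WT_2 b.

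With all 6 samples, 1 of 58 members was called in Hmga1del_2 against WT_2, a lower one, where 8.25% of all genes were called and 3.77% were lower. Under the study's own rule 0 members were called by edgeR (0.0687% of all genes). An unadjusted p under 0.05 was found for 24 members (37% of all genes), and DESeq2 at 0.05 called 18, 16 higher and 2 lower (24.7% of all genes). The 1 member called by edgeR was Hist2h2bb, at 4419, 7037 and 4963 CPM in WT_2 a, b and c and 2548, 2690 and 2697 CPM in Hmga1del_2. The groups did not overlap, and the gene was 2.07-fold lower (log2 difference -1.05 ± 0.21, adjusted p = 0.0342). The call was lost when WT_2 c or any sample of Hmga1del_2 was left out, while the log2 difference kept to between -1.19 and -0.83.

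The other classes leaned upwards without passing. The median over the 58 members was 0.58 on the log2 scale, and that over all genes 0.04. All 13 H4 genes had positive differences (0.75 to 1.60) and an unadjusted p under 0.05, which 37% of all genes had. The same sign was found for all 11 H3 genes (0.60 to 1.35) and all 15 H2A genes (0.28 to 0.64), while H2B genes ran from -1.05 to 0.74. H4 genes summed to 791, 585 and 683 CPM in Hmga1del_2, above the 412, 125 and 361 CPM of WT_2. For all 13 H4 and 11 H3 genes, 13 H2A genes and 4 H2B genes every Hmga1del_2 sample lay above every WT_2 sample, 41 of 58 in all, where 26.7% of all genes did. In 3 H2B genes, Hist1h2ba, Hist1h2bb and Hist2h2bb, every sample lay below, where 24.6% of all genes did. Without WT_2 b these counts were 41 and 4, and the shares of all genes 32.1% and 30%.

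Without WT_2 b the wild type held only WT_2 a and c, its spread shrank and the calls changed. WT_2 b was singled out by its values, those of the histone genes among them, and the p-values do not allow for that choice. Of the 58 members, 43 were then called, 39 higher and 4 lower in Hmga1del_2, where 42.5% of all genes were called, 20.5% higher and 22% lower. All 13 H4 genes and 11 H3 genes were higher, as were 12 of 15 H2A genes. H2B genes divided into 3 higher, 4 lower and 12 not called. The class medians were 0.89 for H4, 0.61 for H3, 0.25 for H2A and -0.02 for H2B, and that of all genes was 0.03. Of the 58 members, 55 kept the sign they had with all samples.

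The largest of these differences belonged to H4 genes. Hist4h4 stood at 2.23, 0.184 and 2.26 CPM in WT_2 and at 5.93, 3.76 and 5.09 CPM in Hmga1del_2 (log2 difference without WT_2 b 1.11 ± 0.23, adjusted p = 0.000673; with it 1.60 ± 0.57, adjusted p = 0.0916). Hist1h4d, the highest H4 gene per length, stood at 102, 22.6 and 89.9 CPM and at 221, 162 and 186 CPM (without WT_2 b 0.98 ± 0.09, adjusted p = 2.49e-07; with it 1.40 ± 0.48, adjusted p = 0.0866). Hist1h4n, second by p with all samples, had 16.9, 4.78 and 14.4 CPM in WT_2 and 38.1, 26.6 and 32.9 CPM in Hmga1del_2. Its log2 difference was 1.04 ± 0.12 without WT_2 b (adjusted p = 2.53e-06) and 1.42 ± 0.40 with it (adjusted p = 0.0608). Every coding window of Hist1h4n is repeated elsewhere in the genome, so these values may hold reads of other H4 genes. Under the fold limit of the study's own rule and without WT_2 b, 3 members passed, all of them H4 genes, beside 2.75% of all genes.

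Hist2h2bb and Hist1h2bb went the other way. Without WT_2 b, Hist2h2bb differed by -0.83 ± 0.05 (adjusted p = 2.49e-09) and Hist1h2bb by -0.81 ± 0.12 (adjusted p = 2.86e-05). Hist1h2bb stood at 2215, 1982 and 3313 CPM in WT_2 a, b and c and at 1429, 1896 and 1402 CPM in Hmga1del_2, and with all samples its difference was -0.67 ± 0.23 (adjusted p = 0.0904). These are the 2 genes that were also far higher in WT_2 than in WT_1, and the sum over all 58 members overlapped between the groups, at 14346 to 14680 CPM in the deletion and 13847 to 17037 CPM in WT_2.

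**Figure D4:**
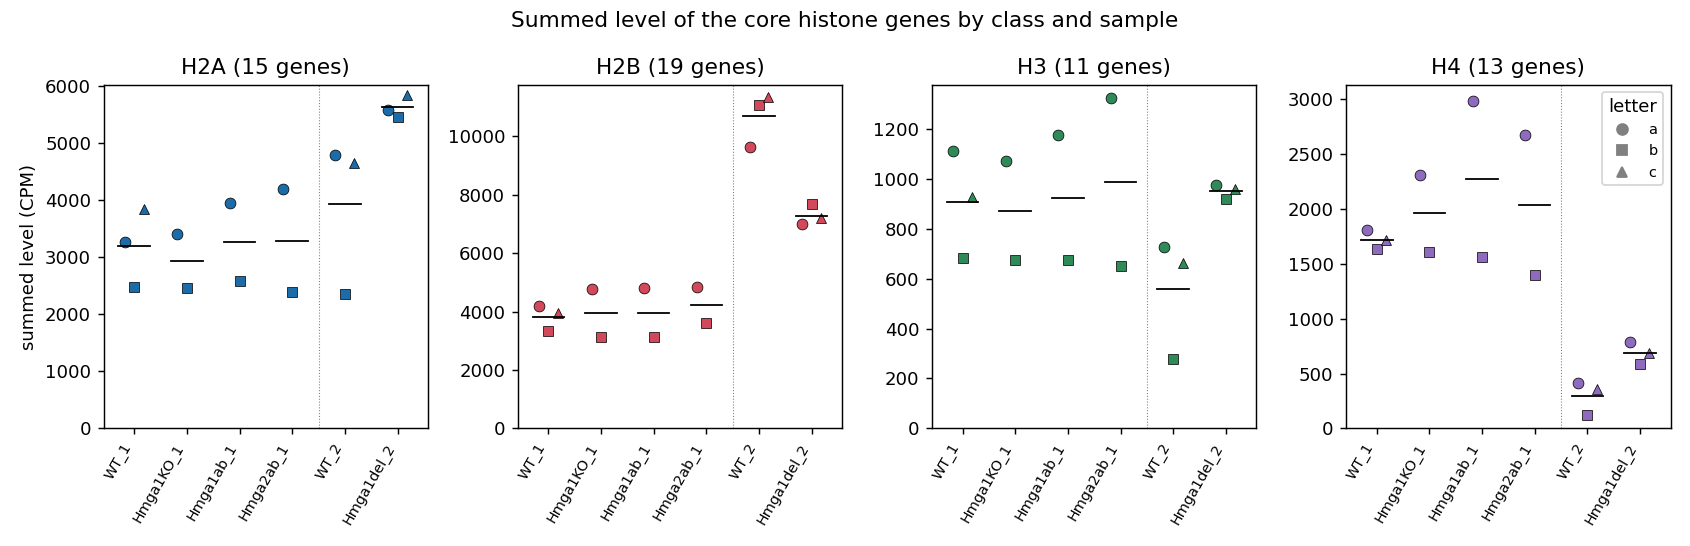
Summed CPM (y axis) of the H2A, H2B, H3 and H4 genes in each sample of the 6 groups (x axis), with the letter as marker shape and the group mean as a bar. Batch b lies below batch a in every genotype of the knockout experiment, H4 in Hmga1del_2 (585 to 791 CPM) lies above WT_2 (125 to 412 CPM), and H2B lies below it.

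**Figure D5:**
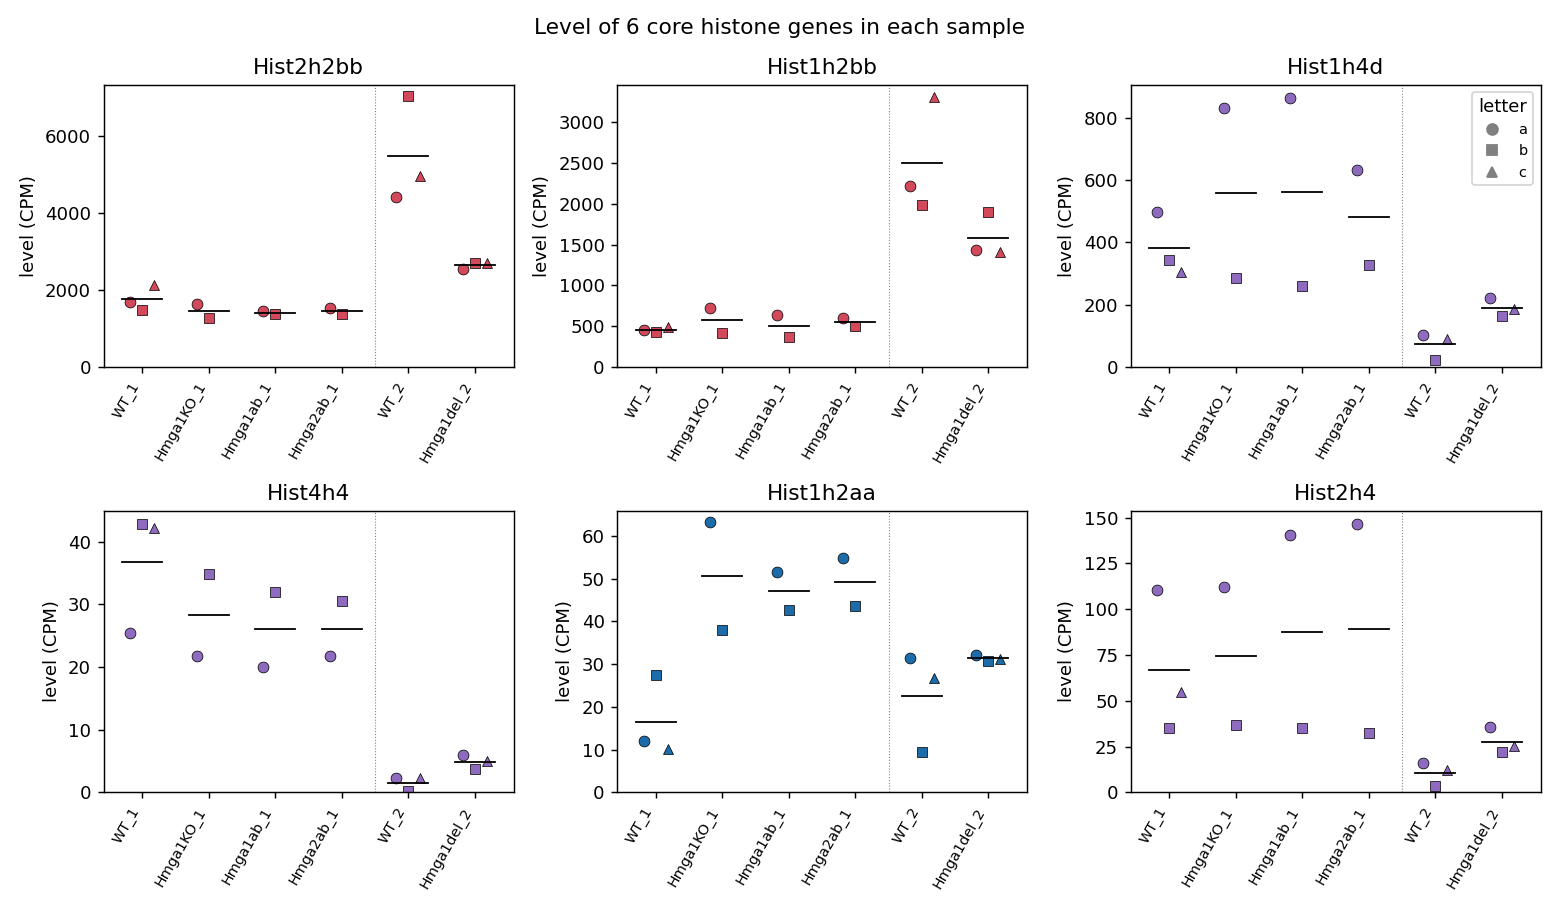
CPM (y axis) of Hist2h2bb, Hist1h2bb, Hist1h4d, Hist4h4, Hist1h2aa and Hist2h4 in each sample of the 6 groups (x axis), with the letter as marker shape and the group mean as a bar. Hist2h2bb is highest in WT_2 b (7037 CPM), Hist4h4 is at most 5.93 CPM in the full-deletion experiment, and Hist1h2aa is above all WT_1 samples in the 6 samples derived from the knockout.

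Calls among the genes around histone supply also depended on WT_2 b, and those with all samples come first, where 8.25% of all genes were called. Casp8ap2 (-1.32 ± 0.26, adjusted p = 0.0341) and Ncbp2 (-0.65 ± 0.15, adjusted p = 0.0443), a subunit of the nuclear cap-binding complex, were lower among 15 factors for the mRNA end. Ccne2, a cyclin of S-phase entry, was lower among the 11 genes listed for histone transcription and S-phase entry (-0.78 ± 0.11, adjusted p = 0.0216). Among 8 linker histones H1f0 was higher (0.64 ± 0.10, adjusted p = 0.0216) and the testis form Hist1h1t lower (-1.71 ± 0.30, adjusted p = 0.0286), and among 9 variants H2afy2, a macroH2A, was higher (0.54 ± 0.11, adjusted p = 0.0356). Of the 28 replication genes and 16 chaperones none was called by edgeR, and 14 and 8 had an unadjusted p under 0.05, which 37% of all genes had. Of 57 short RNAs without a poly(A) tail 1 was lower, Snord68 (-1.85 ± 0.39, adjusted p = 0.0383). Without WT_2 b the calls were 1 higher and 8 lower of the 15 mRNA end factors, 1 higher and 7 lower of the 11 transcription and S-phase entry genes, 6 higher and 2 lower of the 8 linker histones, 2 higher and 1 lower of the 9 variants, 3 higher and 15 lower of the 28 replication genes, 8 lower of the 16 chaperones, and 4 higher and 13 lower of 59 short RNAs, beside the 20.5% higher and 22% lower of all genes. Casp8ap2 then stood at -0.94 ± 0.05 (adjusted p = 6.92e-10), Ncbp2 at -0.47 ± 0.07 (adjusted p = 2.02e-05), Ccne2 at -0.69 ± 0.08 (adjusted p = 1.96e-06), H1f0 at 0.66 ± 0.07 (adjusted p = 8.76e-07), Hist1h1t at -1.32 ± 0.13 (adjusted p = 3.19e-07) and H2afy2 at 0.62 ± 0.08 (adjusted p = 5.71e-06). Snord68 fell under the count filter.

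Whether the frameshift clone and the deletion clone differed in their effect was tested as an interaction over all 15 samples. No member was called by edgeR (0.375% of the 13050 genes tested), 11 had an unadjusted p under 0.05, against 18.7% of all genes, and DESeq2 called 1, Hist2h2bb (2.52% of all genes). The median over the members was -0.53, the knockout effect minus the deletion effect, beside -0.03 over all genes. The lowest p belonged to Hist2h2bb (0.94 ± 0.27, adjusted p = 0.185) and Hist4h4 (-1.84 ± 0.58, adjusted p = 0.195). Without WT_2 b, 11 members were called, beside 5.28% of all genes. These were 8 H3 genes, led by Hist1h3f (-0.81 ± 0.15, adjusted p = 0.0137), Hist4h4 (-1.33 ± 0.24, adjusted p = 0.0138), and the H2B genes Hist2h2bb (0.74 ± 0.12, adjusted p = 0.01003) and Hist1h2bb (1.18 ± 0.29, adjusted p = 0.0355). The knockout experiment was prepared apart from the deletion experiment, so kind of mutation, clone and preparation cannot be told apart.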

How the data were processed

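RNA from at least 2 independent cultures harvested on different days was depleted of rRNA, and strand-specific libraries were sequenced as single reads. The submitters' processing notes name bcl2fastq 2.17, Bowtie and mm9. The authors trimmed and aligned reads with bowtie through QuasR, kept 1 random position for reads with several, and deposited raw counts per gene over exons of UCSC known genes, on the same strand, with the summed exon width as another column.

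Deposited counts averaging 10 or more were scaled by TMM and fitted over all genes by edgeR 4.0.16 quasi-likelihood (R 4.3.3), with Benjamini-Hochberg adjustment and a threshold of 0.05, unlike the study's 0.01 with 2-fold. The batch letter was a term in the knockout experiment, where the study calls the letters batches and samples of the same letter deviated together (r = 0.523, 0.373 and 0.395 with WT_1). In the full-deletion experiment no term was used, as in the study, and deviations by letter gave r = 0.0975, 0.105 and -0.0611. The interaction came from a joint fit of 15 samples. DESeq2 1.42.0 and limma 3.58.1 were alternatives, beside other scalings, filters and samples left out. In data simulated for Hmga1KO_1 against WT_1 (13781 genes), 83 of 100 genes changed 2-fold were recovered, and for Hmga1del_2 against WT_2 (12824 genes) 74 of 100. Unchanged genes called were 11 and 17. The changed genes all had a mean count of at least 100, so recovery at lower counts was not measured. Each gene was drawn on its own, so deviations that many genes share in a sample, as in WT_2 b, were not simulated. All p-values measure only the spread between these samples. At these depths members such as Hist2h2be had few counts.

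Named genes are the 3 highest per class by CPM per kilobase, per comparison the called members (at most 8, lowest p first) or the 2 of lowest p, the extremes of the batch contrast, members of the small clusters, and at most 6 called genes of each list, of which 1 is not reported here. Others were singled out after their values were seen: Hist3h2a, Hist1h2bb, the genes without WT_2 b and the orders within each wild type. Members and lists were chosen with earlier results of these data known. Sequences were read from NCBIM37, the build of the files, and no protein sequence was used here.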

Additional observations from a re-analysis of the deposited data

How the results depend on the processing

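The count of called members stayed within 1.5 times its value in 128 of 146 combinations of comparison and alternative. In most comparisons that value was 0, so there it only means that the count stayed at 0. The stricter rules could not change a count of 0, and the 128 is therefore no measure of stability. With samples left out in turn it ran from 0 to 1 for Hmga1KO_1 against WT_1, from 0 to 2 for Hmga1ab_1 and for Hmga2ab_1 against WT_1, stayed at 0 for both lines against Hmga1KO_1, ran from 30 to 48 between the batches, from 0 to 43 for Hmga1del_2 against WT_2 (43 without WT_2 b) and from 0 to 11 for the interaction (11 without WT_2 b). The stricter rule of adjusted p under 0.01 and 2-fold left 7 between the batches, and 0 in the deletion, with or without the fold limit. For the deletion, DESeq2 called 18 (24.7% of all genes), the counts without a filter gave 2 (1345 of all 17650 genes), and the letters as a replicate block gave 4 (396 of all 13098 genes), all H4 (Hist1h4n, Hist1h4a, Hist1h4f and Hist1h4m), with Hist2h2bb at an adjusted p of 0.0516; the letters do not pair those samples. DESeq2 called 1 member for the interaction, and the fit of only the groups compared called 1, Hist1h2aa, for Hmga2ab_1 against WT_1 (1.44, adjusted p = 0.00290, with 350 of all 13871 genes called). Leaving the batch letters out, so with no replicate block, kept 0 called in the 5 genotype comparisons of the knockout experiment. The members of lowest p in each comparison kept their sign under every alternative run, while Hist1h2bh, Hist1h2bn and Hist2h2be changed sign in the deletion without WT_2 b. The cause of these changes was not tested. The summed level of the 58 genes in Hmga1del_2 (14552 CPM) was 14370 with DESeq2 size factors and 16121 scaled by summed counts. Its place beside WT_2 depended on the scaling. By summed counts, WT_2 a, b and c stood at 15445, 10414 and 16795 CPM, and Hmga1del_2 at 16003, 16075 and 16286 CPM. The H2B sums then overlapped, with WT_2 b at 8337 CPM and Hmga1del_2 b at 8429 CPM.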
